A study of Mus musculus with 21 samples.

Results

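The genes of tumour necrosis factor (TNF) and NF-kB signalling were examined for DNA methylation in cultured mouse synovial fibroblasts, the stromal cells that line the joint. They were 46 genes chosen by name, from ligand to inhibitor, and their regions were every row of 4 deposited tables that carried one of these names. This gave 57 of the 49307 regions in the tables, at 26 of the 46 genes. The 20 genes without a listed region were Tnf itself, the receptor genes Tnfrsf1b, Cd40 and Tnfrsf12a, the adaptor and ubiquitin ligase genes Traf1, Birc2, Birc3, Sharpin, Rbck1 and Rnf31, the kinase pathway genes Ripk1, Ripk3, Tab1, Tab2, Ikbkg and Chuk, the subunit gene Rel, and Nfkbib, Nfkbie and Tnip2. Nothing can be said of their methylation, since the tables hold only regions that their authors had listed as higher or lower.

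Cells were fibroblasts of passages 4 to 5 from mice of CBA x C57BL/6J background, and 7 groups of 3 samples were labelled. Tg197 and wild-type (WT) cells were compared at 3, 8 and 11 weeks, and WT cells of 8 weeks were also cultured with added TNF. The Tg197 strain overexpresses human TNF from a transgene and is a model of chronic polyarthritis. Its promoter, the dose and time of the added TNF, and whether replicates were separate animals or cultures are not in the labels, so a p-value here sets a difference against the spread of these samples alone, and that spread may be technical. In MethylCap-seq, a methyl-CpG-binding protein pulls down methylated fragments for sequencing, so that the reads of a region depend on its CpG density as well as on its methylation. Each table gives 1 normalized read value per library for each region. TNF-treated libraries 1 and 2 did not differ at any of the 16898 regions. They entered as a single sample (n = 2 against n = 3), and other comparisons had n = 3 per group. Whole reads recovered in the listed regions numbered from 385155 to 2875554 per library. The comparisons at 8 weeks share their WT libraries. Synovial fibroblast identity cannot be checked from these tables. Of 9 fibroblast marker genes, Pdgfra was listed at 3 weeks, Pdpn at 8 weeks and Pdpn and Col1a2 after TNF.

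TNF binds its receptors and assembles adaptors and ubiquitin ligases, which recruit the kinase TAK1 (Map3k7) and the IkB kinases. These phosphorylate the IkB inhibitors, whose destruction frees NF-kB dimers of RelA and NF-kB1 to enter the nucleus. A second branch, used by lymphotoxin beta and RANK ligand, stabilizes the kinase NIK (Map3k14) by removing TRAF3 and yields RelB with NF-kB2. NF-kB induces several of its own brakes, and in synovial fibroblasts the pathway is known for driving cytokines, matrix proteases and osteoclast-forming signals.

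For 2 members a listed region spanned the gene start, and these windows are shown to give the CpG content of the 2 member starts with a listed region over them. They are RefSeq sequences of the build GRCm38.p6, from 250 bases before to 50 bases after the start, on the plus strand at chr17:35194257-35194556 for Ltb and chrX:85573772-85574071 for Tab3. All other positions are in mm9. Each CpG is in capitals.
Ltb: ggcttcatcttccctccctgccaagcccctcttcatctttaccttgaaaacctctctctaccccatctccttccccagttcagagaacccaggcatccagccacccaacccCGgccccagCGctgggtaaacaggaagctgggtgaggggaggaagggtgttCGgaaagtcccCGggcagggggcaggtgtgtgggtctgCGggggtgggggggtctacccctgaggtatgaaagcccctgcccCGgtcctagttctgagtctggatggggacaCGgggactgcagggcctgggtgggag
Tab3: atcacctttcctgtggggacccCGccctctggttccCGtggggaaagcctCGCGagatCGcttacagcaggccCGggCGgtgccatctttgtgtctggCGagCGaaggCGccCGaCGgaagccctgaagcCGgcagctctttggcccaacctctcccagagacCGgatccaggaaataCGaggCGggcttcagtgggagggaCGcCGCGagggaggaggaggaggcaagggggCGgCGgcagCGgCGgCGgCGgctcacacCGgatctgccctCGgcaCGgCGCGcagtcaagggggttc
The Ltb window holds 7 CpGs, the median of all 32851 windows of this length, and the Tab3 window holds 30, a number that 11.7% of all windows reach. Whether the RefSeq starts are those of the tables was not tested across the builds.

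At 3 weeks, 14 regions at 11 members were listed. Of these, 5 rose in Tg197, 7 fell and 2 did not pass (limma, adjusted p under 0.05). Of all regions of this age, 85% passed, 40.3% as higher and 44.7% as lower, so the share of members that passed was near the background. The groups did not overlap at 12 of the 14, against 86.1% of the table, and 9 were listed as lower, against 56.6%. Gains lay in the gene bodies of Tnfrsf1a, Nfkb1, Nfkb2, Nfkbiz and Map3k14, and losses at Lta, Tnfrsf11a, Traf5, Nfkbia and Tnip1. The median log2 fold change was -0.15 over the members and -0.12 over the table. Fold changes are differences of log2(value + 1), given with their standard error.

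At 8 weeks, 20 regions at 15 members were listed, of which 2 rose in Tg197 (Tnfrsf11b and Map3k7), 8 fell and 10 did not pass. Of all listed regions, 54% passed, 17.4% as higher and 36.6% as lower. The groups did not overlap at 14 of the 20, against 69.6% of the table, and 14 were listed as lower, against 51.5%. Losses lay at Ltb, Traf5, Ikbkb, Ikbke, Rela, Bcl3 and Tnip1. The median log2 fold change was -1.31 over the members and -0.22 over the table. With autosomes only, which kept 19 member regions, the median was -1.31 over the members and -0.71 over all regions kept. The members thus lay closer to the background once the X chromosome was left out. In that setting 4644 of 10987 regions passed as lower and 2344 as higher. Of the 19 member regions 10 passed as lower and 2 as higher. The calls at this age changed when libraries were left out. When any one of Tg197 libraries 1 and 3 or WT libraries 1 and 2 was left out, no member region and no region of the table passed (limma, with 6 to 11 member regions at an unadjusted p under 0.05). The median log2 fold change of the members then lay between -1.24 and -0.97. Without Tg197 library 2, 14 member regions passed (5 higher, 9 lower), and without WT library 3, 12 passed (1 higher, 11 lower). With a pseudocount of 0.1 none passed (limma, 16 at an unadjusted p under 0.05), and a voom fit to recovered reads passed 6 (1 higher, 5 lower). With the libraries rescaled to equal medians over the table, 12 passed (4 higher, 8 lower).

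At 11 weeks, 5 regions at 4 members were listed and all 5 passed, 2 as higher (Traf3 and Map3k14) and 3 as lower (Tnfsf11, Map3k14 and Cyld). Of all listed regions, 77.9% passed, 49.7% as higher and 28.2% as lower. The groups were separate at all 5, against 83.7% of the table, and 3 were listed as lower, against 45.8%. The median log2 fold change was -0.83 over the members and 0.76 over the table. No member region passed when Tg197 library 1, Tg197 library 3 or WT library 2 was left out (limma, 5 of 5 at an unadjusted p under 0.05 in each case). Of all 7309 listed regions 10, 0 and 0 then passed, and the median log2 fold change of the members was -0.73, -0.896 and -0.71. After rescaling to equal medians 4 passed (1 higher, 3 lower), since Traf3 no longer did (log2 fold change 0.73, adjusted p = 0.0535).

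After TNF treatment of WT cells, 18 regions at 12 members were listed, of which 17 fell, none rose and 1 did not pass. Of all listed regions, 93.8% passed, 29.8% as higher and 64.1% as lower. The groups were separate at all 18, against 95.8% of the table, and 17 were listed as lower, against 66.2%. The lower regions lay at Tnfrsf1a, Tradd, Traf2, Traf3, Traf5, Ikbkb, Ikbke, Map3k14, Map3k8, Rela, Relb and Tnfaip3. The median log2 fold change was -1.32 over the members and -1.09 over the table. Rescaling the libraries to equal medians moved the median of the table to -0.25 and that of the members to -0.49. It left 4 member regions past the threshold, lower at Ikbke, Relb and Traf3 (chr12:112492301-112492850) and higher at Ikbkb. The calls of the other 14 lower regions thus depended on the scaling of the libraries. By voom, the member regions that passed were 12, 6, 5 and 15 at 3, 8 and 11 weeks and after TNF, against 85.7%, 49%, 70.3% and 93.2% of the tables.

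**Figure D1:**
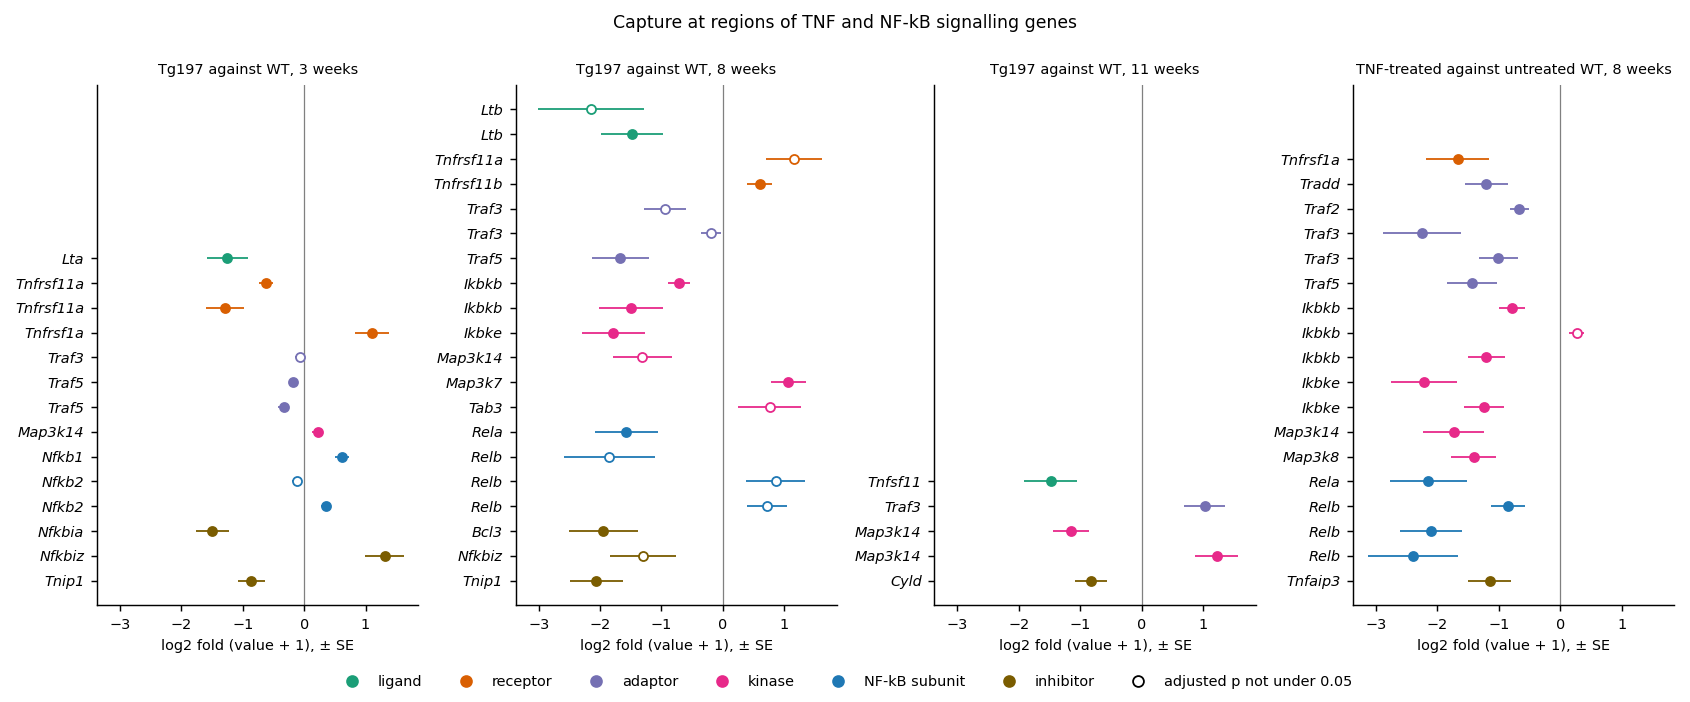
Log2 fold change of log2(value + 1) with its standard error (x axis) for each of the 57 member regions, in 1 panel per table, ordered and coloured by role. Filled points passed limma at an adjusted p under 0.05: 12 of 14 at 3 weeks, 10 of 20 at 8 weeks, 5 of 5 at 11 weeks and 17 of 18 after TNF, where all 17 lay left of 0 (2 of them changed sign after rescaling to equal medians).

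Counts by role are given per table and are to be read against the shares of calls above. Lower calls made up 44.7%, 36.6%, 28.2% and 64.1% at 3, 8 and 11 weeks and after TNF. Higher calls made up 40.3%, 17.4%, 49.7% and 29.8% in the same order. Ligand genes were listed in 4 regions, all as lower, and 1 region fell at each age. Lta encodes lymphotoxin alpha, which binds the TNF receptors. At 3 weeks its region lay 645 to 1144 bp past the gene start (chr17:35341151-35341650). It held 23.5, 29.9 and 21.6 normalized reads in the WT libraries and 6.48, 16.0 and 8.90 in the Tg197 libraries. The groups did not overlap, and the log2 fold change was -1.25 ± 0.33 (adjusted p = 0.00329).

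Ltb encodes lymphotoxin beta, the membrane ligand of the lymphotoxin beta receptor, and lies near Lta with Tnf between them. At 8 weeks the region that covers its start (chr17:35330551-35331550, from 900 bp before to 99 bp after it) held 98.1, 79.4 and 26.5 in WT and 25.2, 21.5 and 16.2 in Tg197. WT library 3 stood just above the highest Tg197 library, so that the groups were separate by a small margin (log2 fold change -1.48 ± 0.50, adjusted p = 0.0447). Without Tg197 library 2 the adjusted p was 0.0508. A region further upstream (chr17:35329051-35329650) held 44.0, 47.2 and 7.74 in WT and 2.65, 2.77 and 14.7 in Tg197. There WT library 3 lay below Tg197 library 3, and the region did not pass (-2.15 ± 0.86, adjusted p = 0.0624). Without WT library 3 it passed (-2.96, adjusted p = 0.0344). Of the 52 other regions listed within 1 Mb of Ltb, 44 were lower, so most of the surrounding listed regions were lower too. At Lta, 23 of 35 such neighbours were lower at 3 weeks.

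Tnfsf11 encodes RANK ligand, which drives osteoclast formation. At 11 weeks its region lay 25349 to 25848 bp into the gene (chr14:78682001-78682500), in its distal part. It held 13.6, 17.7 and 18.5 in WT and 3.99, 4.58 and 7.76 in Tg197. All Tg197 libraries were below all WT libraries (-1.48 ± 0.43, adjusted p = 0.0219).

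Receptor genes were listed in 6 regions. At 3 weeks 1 of 3 rose and 2 fell, at 8 weeks 1 of 2 rose, and after TNF 1 of 1 fell. Tnfrsf1a encodes the main TNF receptor and had a region at 3 weeks and another after TNF, 2100 bp apart in the distal part of the gene. The region at 3 weeks (chr6:125309401-125309900, in the gene body) held 14.1, 13.6 and 21.6 in WT and 35.6, 27.3 and 46.5 in Tg197. It rose, with a log2 fold change of 1.10 ± 0.28 (adjusted p = 0.0028). The region of the TNF table (chr6:125312001-125312500) ended at the annotated gene end and held 14.6, 12.2 and 14.7 in untreated cells and 1.99 and 6.20 in treated ones. It fell by 1.67 on the log2 scale (SE 0.51, adjusted p = 0.0126), and did not pass without the first treated library (adjusted p = 0.0689) or after rescaling (adjusted p = 0.165). These 2 regions come from different WT libraries at different ages, and the difference between them was not tested.

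Tnfrsf11a encodes RANK, the receptor of RANK ligand. Its region 58202 to 58751 bp into the gene (chr1:107735501-107736050) held 171, 137 and 139 in WT and 99.4, 93.4 and 94.95 in Tg197 at 3 weeks. A second region, 63552 to 64201 bp into the gene, held 30.1, 19.0 and 31.8 in WT and 8.64, 9.43 and 12.9 in Tg197. Both fell without overlap of the groups, by 0.62 (SE 0.11, adjusted p = 0.00146) and 1.29 (SE 0.31, adjusted p = 0.00245) on the log2 scale. At 8 weeks another region, 33002 to 33501 bp into the gene, held 19.5, 11.2 and 24.3 in WT and 35.8, 26.3 and 69.1 in Tg197. The groups were again separate but the region did not pass (1.16 ± 0.46, adjusted p = 0.0609). Tnfrsf11b encodes osteoprotegerin, the soluble decoy receptor for RANK ligand. At 8 weeks its gene body (chr15:54091401-54091900) held 64.3, 73.4 and 79.6 in WT and 129.9, 91.3 and 111.8 in Tg197, and rose (0.60 ± 0.20, adjusted p = 0.045). The adjusted p was 0.0575 without WT library 3, 0.144 without WT library 1 and 0.134 without WT library 2. Without Tg197 library 1 it was 0.0875 and without Tg197 library 3 it was 0.108. It was 0.0513 by voom and 0.0532 with a pseudocount of 0.1.

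**Figure D2:**
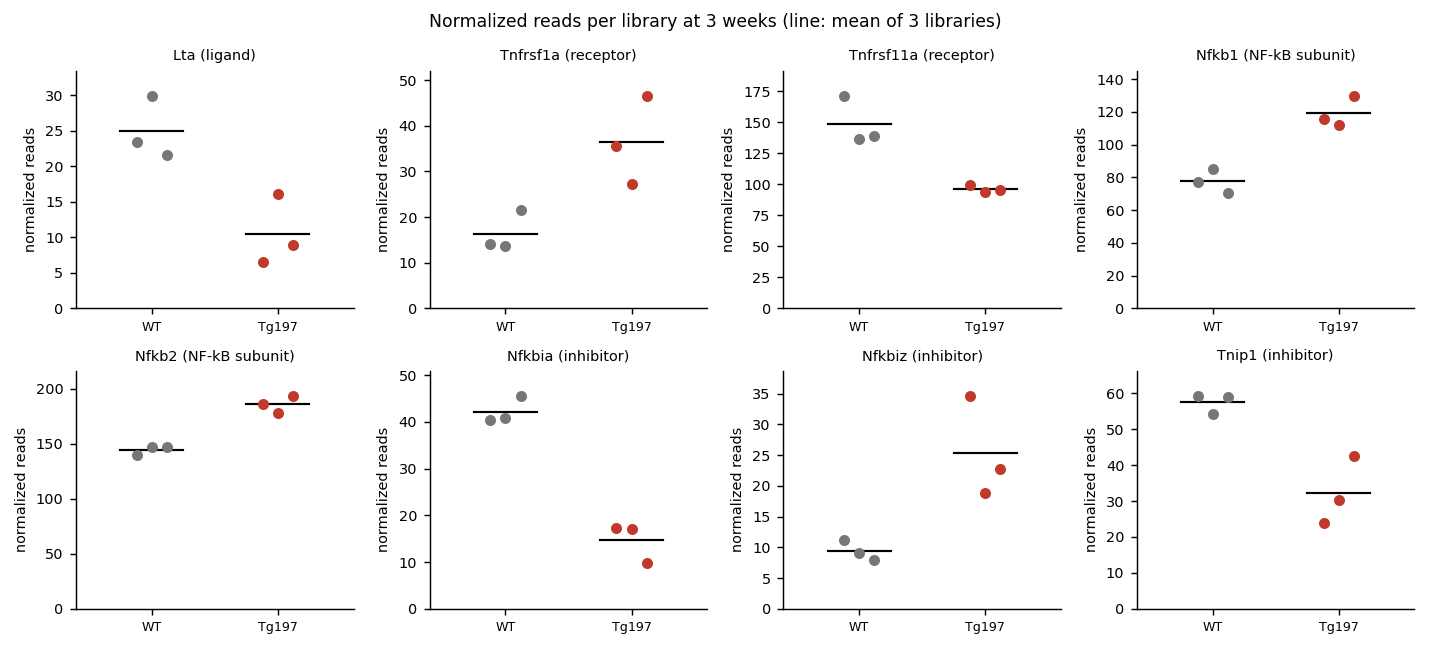
Normalized reads per library (y axis) at 3 weeks in WT (grey) and Tg197 (red) at 8 member regions of different roles, with a line at the mean of 3 libraries. In every panel the 2 groups are separate, with Tg197 higher at Tnfrsf1a, Nfkb1, Nfkb2 and Nfkbiz and lower at Lta, Tnfrsf11a, Nfkbia and Tnip1.

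Adaptor genes were listed in 12 regions. After TNF 5 of 5 fell, in a table with 64.1% lower calls, while 2 of 3 fell at 3 weeks, 1 of 3 fell at 8 weeks and 1 of 1 rose at 11 weeks. Traf3 and Map3k14 were the 2 members found in all 4 tables. Their products form a pair, since TRAF3 directs the destruction of NIK. At Traf3 all 6 regions lay in the distal part of the gene, from 57793 bp after its start onwards. At 11 weeks the region 83393 to 84342 bp in (chr12:112488151-112489100) held 23.1, 11.2 and 19.5 in WT and 36.7, 29.8 and 43.1 in Tg197, a rise of 1.03 ± 0.33 (adjusted p = 0.0227). After TNF the region 87543 to 88092 bp in (chr12:112492301-112492850) held 17.1, 32.8 and 9.83 in untreated and 5.97 and 1.24 in treated cells. It fell by 2.25 on the log2 scale (SE 0.63, adjusted p = 0.0109). Without treated library 3 the adjusted p was 0.0656, and by limma voom it was 0.0619.

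A further Traf3 region was listed at 3 weeks on a small difference. At chr12:112498651-112499250 the WT libraries held 261, 274 and 245 and the Tg197 libraries 254, 236 and 251, ranges that overlapped, and the region did not pass (-0.07 ± 0.07, adjusted p = 0.326). After TNF a region that shares 150 bp with it held 31.7, 33.5 and 24.6 in untreated and 14.9 and 13.6 in treated cells. It fell (-1.01 ± 0.31, adjusted p = 0.013), though not past the threshold without WT library 2 (adjusted p = 0.0586). After rescaling it did not pass, with a log2 fold change of -0.17 (adjusted p = 0.618). At 8 weeks neither of the Traf3 regions passed, with log2 fold changes of -0.94 and -0.19.

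Traf5 encodes an adaptor of several TNF family receptors. In the last 3 kb of the gene, 2 regions fell slightly in Tg197 at 3 weeks, from 196, 194 and 169 in WT to 157, 149.9 and 136 at chr1:193823701-193824200 (-0.33 ± 0.09, adjusted p = 0.00344) and from 314, 283 and 273 to 257, 243 and 266 at chr1:193821301-193821850 (-0.18 ± 0.07, adjusted p = 0.0316). The second lost its call without Tg197 library 1 or 2 or WT library 1, with adjusted p-values up to 0.136, and after rescaling (adjusted p = 0.0911). In the authors' deposited table the region-wide adjusted p of this second region was 1, as for 3 of the 57 member regions.

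Another Traf5 region (chr1:193882351-193882850, 33594 to 34093 bp into the gene) was listed with the same boundaries in both tables of 8 weeks. The WT libraries held 17.8, 21.7 and 17.7 in the Tg197 table, where Tg197 held 5.30, 9.0 and 2.94 (-1.67 ± 0.46, adjusted p = 0.0428). In the TNF table the same WT libraries held 17.98, 22.1 and 19.7 and the treated libraries 8.96 and 4.96 (-1.44 ± 0.41, adjusted p = 0.011). As the WT libraries are shared, the likeness of these values is no independent repeat.

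The other adaptors were listed after TNF only. Tradd encodes the adaptor that joins the TNF receptor to its kinases. Its region lay 843 to 1392 bp past the start (chr8:107787101-107787650) and held 29.1, 19.8 and 24.6 in untreated and 9.95 and 9.92 in treated cells (-1.21 ± 0.35, adjusted p = 0.0114). Traf2 held 93.3, 96.0 and 98.3 in untreated and 61.7 and 58.3 in treated cells at chr2:25377651-25378300 in its gene body (-0.67 ± 0.16, adjusted p = 0.0109). After rescaling, the Tradd value was -0.37 and that of Traf2 turned to 0.17 (adjusted p = 0.353 and 0.585).

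Kinase genes held 16 regions. After TNF 6 of 7 fell, in a table with 64.1% lower calls. At 8 weeks 1 of 6 rose and 3 fell, at 11 weeks 1 of 2 rose and 1 fell, and at 3 weeks 1 of 1 rose. Map3k14 encodes NIK, the kinase that starts the second NF-kB branch. At 11 weeks its gene body held regions that went opposite ways only 1350 bp apart. At chr11:103095051-103095600 WT held 29.9, 34.4 and 28.3 and Tg197 12.8, 11.5 and 16.4 (-1.14 ± 0.29, adjusted p = 0.0219). At chr11:103096951-103097550 WT held 6.80, 11.2 and 7.80 and Tg197 19.95, 20.6 and 22.4 (1.22 ± 0.35, adjusted p = 0.0219). In neither region did the groups overlap.

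In the other tables Map3k14 was listed once each, also in the gene body. At 3 weeks it held 159, 138 and 149.96 in WT and 162, 188 and 170.1 in Tg197 (0.22 ± 0.09, adjusted p = 0.0333), a small rise that lost its call when either library 2 or library 3 of either group was left out (adjusted p from 0.0557 to 0.154). At 8 weeks it held 57.5, 30.7 and 21 in WT and 7.95, 17.99 and 14.7 in Tg197. This difference missed the threshold (-1.31 ± 0.48, adjusted p = 0.0518). After TNF it fell from 17.98, 19.0 and 16.0 to 7.96 and 2.48 (-1.74 ± 0.49, adjusted p = 0.011), and without treated library 3 the adjusted p was 0.0502.

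**Figure D3:**
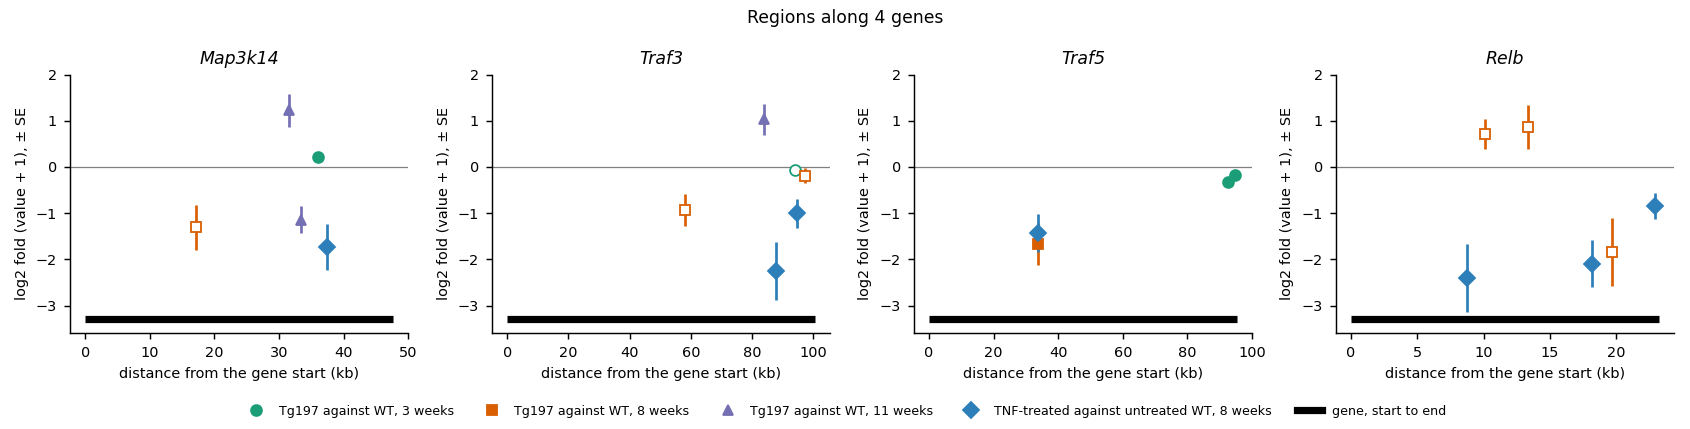
Log2 fold change with its standard error (y axis) against the distance of a region's centre from the gene start in kb (x axis) for the genes Map3k14, Traf3, Traf5 and Relb; the black bar is the gene, marker shapes and colours are the tables, and open markers did not pass. Map3k14 at 11 weeks shows a higher and a lower region side by side, and all Traf3 regions start at least 57793 bp into the gene.

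Ikbkb encodes the catalytic IkB kinase beta, the main activator of the classical branch. A region 31104 to 31953 bp into the gene (chr8:23785101-23785950) held 152, 145 and 146 in WT and 76.9, 106.6 and 88.3 in Tg197 at 8 weeks, a fall of 0.71 ± 0.18 (adjusted p = 0.0428). A region of 600 bp within it was listed after TNF with 152, 145 and 157 in untreated and 118 and 64.5 in treated cells (-0.78 ± 0.22, adjusted p = 0.0109). The 2 treated libraries differed widely there, and without treated library 3 it did not pass (-0.35, adjusted p = 0.0697). The value turned to 0.05 after rescaling (adjusted p = 0.892). After TNF a nearer region (chr8:23800601-23801200) fell from 67.6, 51.8 and 44.2 to 29.9 and 17.4 (-1.20 ± 0.29, adjusted p = 0.0109). Between them, at chr8:23798401-23799100, untreated cells held 231, 210.2 and 265 and treated ones 273 and 293. That was the only member region listed as higher after TNF, and it did not pass (0.27 ± 0.12, adjusted p = 0.0597), though it did after rescaling (1.10, adjusted p = 0.0026). A further Ikbkb region 9554 to 10053 bp in fell at 8 weeks (-1.498 ± 0.52, adjusted p = 0.0466). It did not pass without WT library 3 (adjusted p = 0.103) or Tg197 library 2 (adjusted p = 0.0782). Leaving out any other library also lost the call (adjusted p from 0.0891 to 0.138).

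Ikbke encodes an IkB kinase relative that acts in interferon induction. A region in the distal part of the gene (chr1:133155401-133156200) held 16.1, 31.5 and 11.1 in WT and 5.30, 5.54 and 2.94 in Tg197 at 8 weeks (-1.79 ± 0.51, adjusted p = 0.0428). The same stretch, listed with 50 bp more after TNF, held 16.3, 32.0 and 12.3 in untreated and 1.99 and 4.96 in treated cells (-2.22 ± 0.54, adjusted p = 0.0109), and it passed after rescaling too. A region 5889 to 6538 bp into the gene fell after TNF from 62.5, 41.9 and 32.0 to 19.9 and 16.1 (-1.24 ± 0.32, adjusted p = 0.0109). After rescaling this second region did not pass, with a log2 fold change of -0.41.

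Of the remaining kinase genes, Map3k7 encodes TAK1, which activates the IkB kinases. At 8 weeks its gene body (chr4:32070051-32071000) held 26.2, 23.2 and 33.2 in WT and 74.2, 60.2 and 44.1 in Tg197. It rose without overlap of the groups (1.07 ± 0.29, adjusted p = 0.0428), and none of the 8 other regions listed within 1 Mb was lower. Map3k8 encodes a kinase that passes NF-kB pathway signals on to ERK. After TNF its gene body (chr18:4334301-4335050) fell from 23.1, 23.6 and 19.7 to 7.96 and 7.44 (-1.41 ± 0.37, adjusted p = 0.0109). Both treated libraries were below the untreated ones, but after rescaling the region did not pass, with a log2 fold change of -0.575.

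Tab3 encodes a TAK1-binding adaptor and lies on the X chromosome. The region over its CpG-rich start shown above (chrX:82819101-82819850) held 134, 106 and 81.8 in WT and 354, 78.9 and 206 in Tg197 at 8 weeks. Tg197 library 2 was below every WT library while the other two were above all of them, and the region did not pass (0.76 ± 0.51, adjusted p = 0.197). The same split ran through the X promoters of this table. Over 259 X regions within 1 kb of a gene start, Tg197 libraries 1 to 3 stood at medians of 1.45, -0.25 and 1.13 on the log2 scale relative to the mean of WT. What separates these libraries on X was not tested.

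NF-kB subunit genes held 11 regions. After TNF 4 of 4 fell, in a table with 64.1% lower calls, and at 8 weeks 1 of 4 fell. At 3 weeks 2 of 3 rose, in the genes of the precursor subunits, in a table with 40.3% higher calls. Nfkb1, whose product partners RelA, held 77.0, 85.1 and 70.4 in WT and 115.6, 112.2 and 129.6 in Tg197 at chr3:135309701-135310450 in its gene body (0.62 ± 0.12, adjusted p = 0.00165). Nfkb2, whose product partners RelB, held 139.9, 146.6 and 146.6 in WT and 186, 178 and 193 in Tg197 at chr19:46384451-46384950 (0.36 ± 0.08, adjusted p = 0.0022). A second Nfkb2 region nearer to the start (chr19:46382601-46383100, classed as promoter) held 397, 348 and 345 in WT and 342, 312 and 348 in Tg197, ranges that overlapped, and the region did not pass (-0.12 ± 0.07, adjusted p = 0.133).

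Rela and Relb encode subunits with a transactivation domain, and they were listed at 8 weeks and after TNF. At Rela the region at 8 weeks (chr19:5642451-5643050) held 28.8, 35.2 and 13.3 in WT and 7.95, 11.1 and 4.41 in Tg197 (-1.57 ± 0.52, adjusted p = 0.0435). The region after TNF began 450 bp further on and held 25.7, 12.95 and 8.60 in untreated and 1.00 and 4.96 in treated cells (-2.15 ± 0.63, adjusted p = 0.0114). Of the 52 other regions listed within 1 Mb of it after TNF, 51 were lower. It did not pass without the first treated library (adjusted p = 0.0768) or by voom (adjusted p = 0.0543).

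Relb had 3 regions in each of these tables, all in the gene body. After TNF all 3 fell. At chr7:20196351-20196850 untreated cells held 25.7, 21.3 and 9.83 and treated ones 2.99 and 3.72 (-2.10 ± 0.51, adjusted p = 0.0109), a call that stayed after rescaling. At chr7:20205801-20206300 the values were 17.1, 11.4 and 8.60 against 0 and 4.96 (-2.41 ± 0.73, adjusted p = 0.0125), and at the gene end they were 136, 133 and 68.8 against 67.7 and 52.1 (-0.85 ± 0.28, adjusted p = 0.016). Neither of these calls remained when 1 treated library was left out, library 1 for the former (adjusted p = 0.0879) and library 3 for the latter (adjusted p = 0.117). After rescaling the region at the gene end had a log2 fold change of -0.02 (adjusted p = 0.96). In Tg197 none of the 3 Relb regions passed. A region 1000 bp from the first of the TNF regions held 39.7, 22.5 and 8.84 in WT and 6.63, 9.69 and 1.47 in Tg197 (-1.85 ± 0.74, adjusted p = 0.0626). The other 2 had log2 fold changes of 0.86 and 0.72, with 1 Tg197 library in the WT range each. The latter (chr7:20204451-20204950) lay 850 bp from the region that fell by 2.41 on the log2 scale after TNF, so the adjacent values had opposite signs there.

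**Figure D4:**
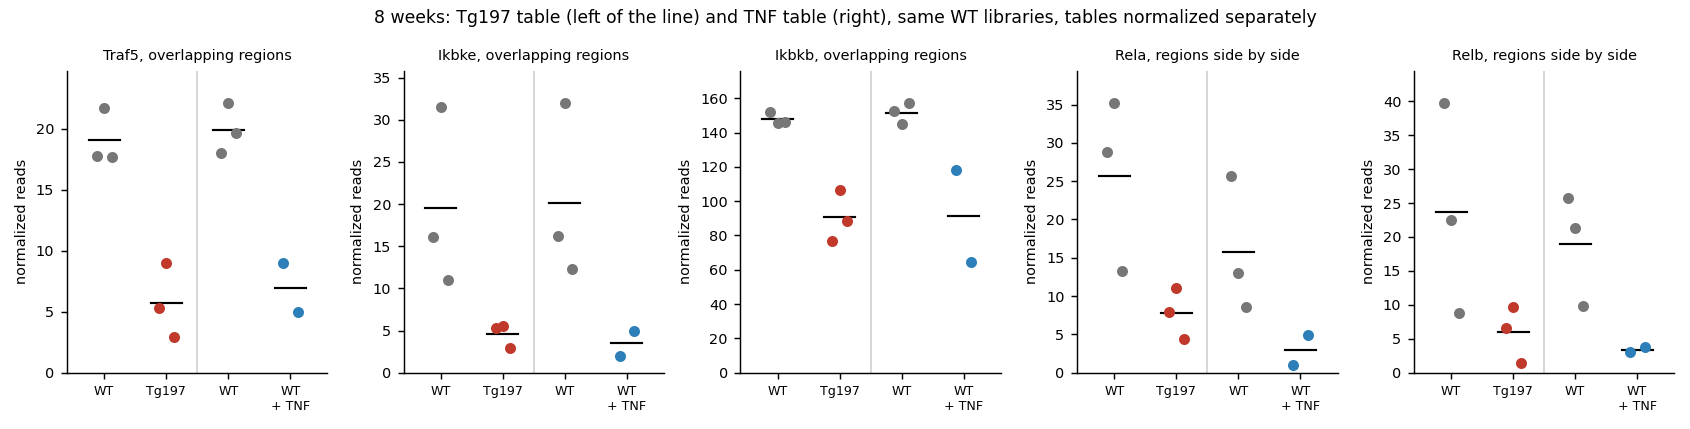
Normalized reads per library (y axis) at regions of 5 members that overlap or lie within 1000 bp of each other in both tables of 8 weeks, for WT (grey), Tg197 (red) and TNF-treated WT (blue), with lines at the means. Only pairs with a negative log2 fold change in Tg197 were drawn, so the shared direction follows from the choice. A further Relb pair, 850 bp apart, had 0.72 in Tg197 and -2.41 after TNF and is not shown. Both sides of each panel use the same WT libraries in tables that were normalized separately, and WT library 3 is the lowest WT point at Ikbke, Rela and Relb.

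Inhibitor and feedback genes held 8 regions. At 3 weeks 1 of 3 rose and 2 fell, against 40.3% and 44.7% of the table. At 8 weeks 2 of 3 fell, against 36.6%, and at 11 weeks and after TNF 1 of 1 fell, against 28.2% and 64.1%. Nfkbia encodes IkB alpha, the inhibitor that NF-kB itself induces. Its region at 3 weeks lay 1533 to 2432 bp past the start of this short gene (chr12:56591201-56592100, classed as promoter). It held 40.4, 40.7 and 45.4 in WT and 17.3, 17.0 and 9.89 in Tg197, with no overlap (log2 fold change -1.495 ± 0.27, adjusted p = 0.0015). Among the 14 member regions of this age it had the largest absolute fold change. Only 5 of its 15 neighbours within 1 Mb were lower, fewer than the 56.6% of the table.

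Nfkbiz encodes the nuclear protein IkB zeta, a coactivator of cytokine genes. At 3 weeks its gene body (chr16:55814651-55815150) held 11.3, 9.05 and 7.95 in WT and 34.6, 18.9 and 22.8 in Tg197 (1.31 ± 0.31, adjusted p = 0.00249). At 8 weeks another region held 48.2, 44.2 and 13.3 in WT and 9.28, 15.2 and 11.8 in Tg197. WT library 3 lay within the Tg197 range and the region did not pass (-1.30 ± 0.54, adjusted p = 0.0687).

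Tnip1 encodes a ubiquitin-binding partner of the brake protein TNFAIP3 and fell at both ages at which it was listed. At 3 weeks (chr11:54751501-54752000) it held 59.2, 54.3 and 59.1 in WT and 23.8, 30.2 and 42.5 in Tg197 (-0.86 ± 0.22, adjusted p = 0.00278). At 8 weeks, at a region 4800 bp away (chr11:54746101-54746700), it held 18.6, 20.97 and 13.3 in WT and 2.65, 4.84 and 2.94 in Tg197 (-2.06 ± 0.43, adjusted p = 0.0428). These tables share no libraries, and in both the groups were separate, while 5 of 13 neighbours were lower at 3 weeks and 16 of 17 at 8 weeks.

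Among the remaining brakes, Bcl3 encodes a nuclear IkB protein. At 8 weeks its gene body (chr7:20404251-20404900) held 30.4, 17.98 and 9.95 in WT and 2.65, 6.92 and 2.94 in Tg197 (-1.95 ± 0.56, adjusted p = 0.0428). Tnfaip3 encodes the ubiquitin-editing brake of TNF receptor signalling. After TNF it fell from 33.4, 39.6 and 22.1 to 11.95 and 14.9 (-1.15 ± 0.35, adjusted p = 0.0121), with adjusted p-values of 0.0537 and 0.0577 without the first treated library and without WT library 2. After rescaling the Tnfaip3 region had a log2 fold change of -0.32 (adjusted p = 0.388). Cyld encodes a deubiquitinase that removes the chains on which the kinases assemble. At 11 weeks its gene body (chr8:91229251-91229750) held 66.6, 69.8 and 44.8 in WT and 28.7, 34.4 and 36.2 in Tg197, and fell (-0.83 ± 0.26, adjusted p = 0.0219).

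In the Tg197 table of 8 weeks, WT library 3 stood apart at the members. At the 14 member regions listed as lower its median log2 difference from the mean of the other WT libraries was -0.97, and it was below that mean at 12. Over all regions of that table listed as lower the median was -0.47, and over those listed as higher it was 0.16. In the TNF table the same library was below the mean of the others at 13 of 17 lower member regions (median -0.41). Its part in the folds was not tested beyond leaving it out, which left 12 and 18 member regions past the threshold at 8 weeks and after TNF.

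**Figure D5:**
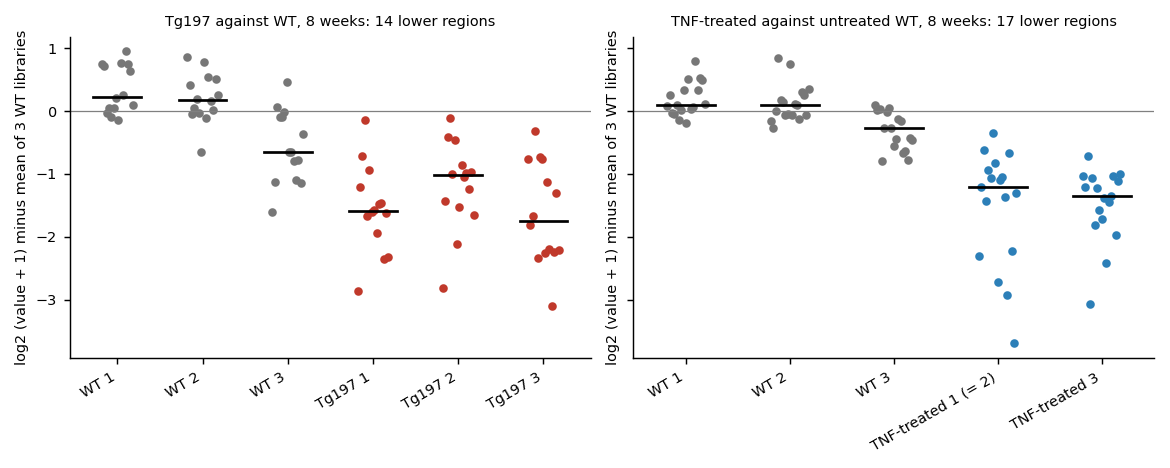
Log2(value + 1) of each library minus the mean of the 3 WT libraries (y axis) at the member regions listed as lower, 14 in the Tg197 table of 8 weeks and 17 in the TNF table; each point is a region and each line a median. The median of WT library 3 lies below those of WT libraries 1 and 2 in both panels, and the Tg197 and TNF-treated medians lie lower still.

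Fold changes were compared between read levels. At 3 weeks the 7 member regions with a mean of at least 100 over all libraries had absolute log2 fold changes from 0.07 to 0.62, and the other 7 had changes from 0.62 to 1.495. In the whole table the medians of these classes were 0.24 and 1.03. Over the table, 89.6% of the regions of the higher class and 13.03% of the lower class were listed as lower, against 5 of 7 and 4 of 7 at the members. At 8 weeks 17.1% of the higher class and 65.3% of the lower class were listed as lower, against 2 of 3 and 12 of 17 at the members. At 11 weeks all 5 member regions were in the lower class. Of these 3 were listed as lower, against 33.5% of that class in the table. After TNF 77.5% of all regions with a mean under 100 were listed as lower, and so were all 16 such member regions.

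In place the member regions were like the tables. Promoters within 3 kb of a start made up 12.3% of them (7 regions at 6 genes) and 12.1% of all regions at a named gene. Of the 50 member regions in gene bodies, 64% lay nearer to the gene's end than to its start, against 59.9% of all 22096 gene-body regions. Neighbouring regions were counted too. Within 1 Mb of the 17 member regions listed as lower after TNF, the median share of other regions listed as lower was 78.3%, against 66.2% of that table, and at 8 weeks it was 75% around 14 lower regions, against 51.5%. At 3 and 11 weeks these shares were 66.7% and 42.9%, against 56.6% and 45.8%.

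Other genes of the pathway were taken from 7 lists with 141 genes in all, counted beside the members. At 3 weeks 17 of their 35 regions rose and 13 fell, against 40.3% and 44.7% of the table. At 8 weeks none of 31 rose, 14 fell and 17 did not pass (limma), against 17.4% higher and 36.6% lower in the table. At 11 weeks 12 of 22 rose and 4 fell, against 49.7% and 28.2%. After TNF 4 of 53 rose and 45 fell, against 29.8% and 64.1%. In the main fit, lower calls thus outnumbered higher ones in these lists, the members and the whole table at 8 weeks and after TNF. The lists were not counted after rescaling to equal medians, where 5816 regions of the TNF table passed as higher and 1327 as lower. After TNF, where 64.1% of all regions fell and 29.8% rose, genes of TNF-induced cell death had 10 of 11 regions lower (among them Casp8, the initiator caspase, and Cflar, its inhibitor), those of the MAP kinase branch 12 of 13, and Toll and IL-1 input genes 8 of 11 with 1 higher. Other ubiquitin editing genes had 7 of 9 lower and 2 higher, other receptors of the family 5 of 5 lower and other ligands 1 of 2 lower and 1 higher. At 11 weeks, where 49.7% of all regions rose, MAP kinase genes had 6 of 8 regions higher and 1 lower. Of 32 classical NF-kB target genes, cytokines and adhesion molecules among them, 2 to 3 were listed in each table, with 1 to 2 lower regions passing, and 2 higher ones at 3 weeks.

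Markers of other cell types were listed as well, and their part in the results was not tested. Marker genes of fibroblasts, macrophages, endothelium, lymphocytes and muscle numbered 34. Of their regions, 2 of 18 rose and 11 fell at 3 weeks, and 1 of 14 and 4 at 8 weeks. At 11 weeks 5 of 10 rose and 2 fell, and after TNF 7 of 21 rose and 13 fell. In the same order, 40.3%, 17.4%, 49.7% and 29.8% of all regions were called higher and 44.7%, 36.6%, 28.2% and 64.1% lower. The muscle genes Ttn and Neb held 11 of the marker regions at 3 weeks. Ttn alone held 9, 3 and 9 of them at 8 and 11 weeks and after TNF. Macrophage and osteoclast markers had 1 region at each age of Tg197 (lower, lower and higher) and 4 after TNF (1 higher, 3 lower).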

How the data were processed

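Libraries of captured methylated DNA (fragments averaging 250 bp, salt fractions combined, per the labels' protocols) were compared in 4 deposited tables. The submitters' processing notes give mm9 as the build and list, without roles, Cuffdiff, Cufflinks, BWA, TopHat2 and TopHat; how regions were called is not given in the sources used here. Per the file headers, the authors give a mean normalized read signal per group, a log2 fold change and p-values with adjusted p-values; the other packed values, 1 per library, were divided by the authors by 1 size factor per library. Library numbers are positions within a packed cell, since no replicate numbers accompany them. All value columns were assigned (0 left out). Whole reads were recovered within 0.1 for 99.98% to 100% of values, and limma voom on them passed 11254, 5872, 5141 and 15754 regions at 3, 8 and 11 weeks and after TNF.

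Limma 3.58.1 (R 4.3.3) was run with its trend option on log2(value + 1) over all regions of each table, with Benjamini-Hochberg adjustment over the table and a threshold of 0.05, and checked on simulated data. Tables were normalized separately and tested apart. No filter on low values was used. Every p-value is a retest of regions already selected for a difference; the depth outside them is unknown, and values carry counting error from the reads behind them. The members and lists were chosen with earlier results of these data known. Values per library are given for regions with the 6 smallest adjusted p-values or the 4 largest fold changes of a table, promoter regions and members in at least 3 tables; further regions were added after their values were seen. Alternatives were pseudocounts of 0.1 and 5, a minimum mean of 10 in whichever group was higher, voom, libraries rescaled to equal medians, the authors' adjusted p under 0.05, autosomes only, identical libraries entered apart, and leaving out each library.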

Additional observations from a re-analysis of the deposited data

How the results depend on the processing

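No paired analysis was possible because the packed values carry no replicate numbers. Leaving out each library in turn gave 10 to 11 member regions past the threshold at 3 weeks, 0 to 14 at 8 weeks, 0 to 5 at 11 weeks and 13 to 18 after TNF. At 8 weeks a pseudocount of 0.1 left 0 and voom 6. After TNF, rescaling to equal medians left 4, moved the median log2 fold change of the members to -0.49, and reversed the Traf2 region to 0.165 and an Ikbkb region to 0.047. That rescaling shifted the median log2 fold change of the tables by 0.06, 0.13, -0.30 and 0.83 (3, 8 and 11 weeks, TNF). Over the whole tables it changed the passing regions from 2087 higher and 4383 lower to 3793 and 4136 at 8 weeks, from 3633 and 2061 to 2339 and 2951 at 11 weeks, and from 5028 and 10827 to 5816 and 1327 after TNF. With the libraries all kept, the counts of member regions at 3 and 11 weeks stayed within 1.5 times under every alternative. In all other settings no member region changed sign. The causes were not tested.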

Other observations

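RefSeq promoter windows of 300 bases were on hand for 36 of the 46 members, 46 windows in all. They held a median of 18.5 CpGs (range 0 to 59), against 7 over all 32851 windows. The kappaB consensus was searched on both strands, with matches that overlap counted at each start. It was found in 13 member windows, at the 11 genes Bcl3, Cyld, Ltb, Map3k7, Nfkb2, Nfkbia, Nfkbie, Rel, Tnfaip3, Tnip1 and Traf3 (3 windows at Nfkb2). That is 28.3% of the member windows, against 8.46% of all. The member windows also held more CpGs, and the part of base composition in this difference was not tested. Some Nfkb2 windows overlap, so a match may be counted in more than 1 of them. Of the windows printed above, that of Ltb holds 1 match and that of Tab3 none. A match is a description of these letters, not a binding site. As the windows and the tables are in different builds, no methylation value was assigned to them.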
